A study of Mus musculus with 23 samples.

Results

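The 10 genes described here encode the Myc, Max and Mxd network of basic helix-loop-helix leucine zipper transcription factors. They are Myc, Mycn and Mycl, their partner Max, the repressors Mxd1, Mxi1, Mxd3, Mxd4 and Mnt, and Mga. Members were the rows of the deposited expression table that carry one of these gene names, and all 10 were found among 24475 genes. MYC proteins dimerise with MAX on E-box DNA and raise transcription of genes for growth, ribosome production and metabolism. MXD proteins, MXI1 (also known as MXD2) and MNT compete for MAX and recruit SIN3 corepressor complexes to the same DNA, while MGA takes MAX into a repressive Polycomb complex. In the T lineage, Myc is a direct target of Notch1, and T-cell acute lymphoblastic leukemia (T-ALL) with activated Notch1 is known for its dependence on MYC.

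RNA was sequenced from 23 mouse samples in 3 groups. The controls were 6 thymi of normal C57BL/6 mice, whose age is not given in the sources used here. The other samples were tumor-bearing spleens of BALB/c mice with the genotype Rag2-/-Il2rg-/-, which lack T, B and natural killer cells of their own but keep other blood lineages. By the study's methods, hosts were 6 to 8 weeks old when they received a thymus lobe of a 1-day-old donor under the kidney capsule. In 14 of them (WT-derived T-ALL) the donor was wild type, of the B6.Ly5.1 line on the C57BL/6 background. In 3 of them (Notch3 KO-derived T-ALL) the donor carried a β-galactosidase gene in the first coding exon of Notch3. Spleens were not sorted, so each library holds leukemic and host cells. Tissue and host strain part with the groups, and their share in any difference from thymus cannot be told apart from that of leukemia. For the same reason, fewer cells of a type and less RNA per cell cannot be told apart.

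Values are log2(scaled RPKM + 1), where RPKM counts reads per transcript length and library size and is scaled to a 75th percentile of about 10 in each library. The offset of 1 understates the fold change of low genes. The deposited table gives no depth for single libraries. All adjusted p-values are from limma with Benjamini-Hochberg adjustment over all genes tested, and a gene was called at an adjusted p under 0.05. Only genes with 3 or more of the fitted libraries at or above 1 scaled RPKM were tested. By that filter 9 of the 10 members were tested against thymus and 8 between the T-ALL groups. Mycl reached a scaled RPKM of 1 in no library. Mycn passed only through the 6 thymus libraries, where it was high, so its lower value in T-ALL was part of how it entered the test.

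Library composition differed between the groups. The mean of 10 erythroid markers was 0.40 to 1.37 in thymus, 2.47 to 6.34 in WT-derived T-ALL and 5.30 to 7.52 in Notch3 KO-derived T-ALL, with 2 of the 10 markers under 0.1 in every thymus library. The mean of 10 neutrophil markers was 1.70 to 3.34, 3.88 to 10.36 and 2.63 to 6.95 in the same order, and WT-derived T-ALL 110 held the highest value. All 9 T-cell markers were at or above 1 in every library, with a mean of 8.04 to 8.30 in thymus, 7.13 to 8.07 in WT-derived T-ALL and 7.40 to 7.77 in Notch3 KO-derived T-ALL. Against thymus in WT-derived T-ALL, 9 of 10 erythroid, 10 of 10 neutrophil, 7 of 8 macrophage, 6 of 6 megakaryocyte and 8 of 8 proliferation markers were higher. All 4 tested B-cell markers and the 1 tested thymic epithelial marker were lower, 4 of 9 T-cell markers were lower, and of 3 tested stromal and endothelial markers 2 were higher and 1 lower, beside 29.3% of all genes higher and 22.3% lower. Among Notch3 KO-derived T-ALL markers, 10 of 10 erythroid, 3 of 10 neutrophil, 8 of 8 macrophage, 6 of 6 megakaryocyte and 7 of 8 proliferation markers were higher, as were 2 of 3 stromal and endothelial markers. The 4 B-cell markers, the thymic epithelial marker and 2 of 9 T-cell markers were lower. Of all genes 21.2% were higher and 16.3% lower there, so the neutrophil and T-cell counts are near the background. The neutrophil count rests on single libraries, being 9 of 10 without Notch3 KO-derived T-ALL 2, 1 without thymus 6 and 0 without T-ALL 1 or 3, the T-cell count was 1 without T-ALL 1 or 3, and the thymic epithelial marker was not called without either. In WT-derived T-ALL, leaving out thymus 5 or 6 took the macrophage count from 7 to 3 and the T-cell count from 4 to 2. Of these markers, 3 for B cells passed the filter only through thymus libraries and 17 for other lineages only through T-ALL libraries, so their direction was part of how they entered the test. The mean of the 8 proliferation markers was 5.16 to 5.84 in thymus, 6.02 to 6.70 in WT-derived T-ALL and 6.42 to 6.73 in Notch3 KO-derived T-ALL. The part of these cell types in the differences below was not tested beyond the fits with a marker mean as a covariate. Notch3 itself was 3.22, 2.59 and 3.74 in Notch3 KO-derived T-ALL 1, 2 and 3, within or just under the 2.62 to 4.29 of thymus, and was 3.17 to 5.78 in WT-derived T-ALL. A value summed over the gene can hold reads from exons after the insertion and from host cells, so it does not check the genotype.

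MYC and MAX bind the E-box CACGTG, which reads the same on both strands. Among 9 members with a RefSeq promoter window (250 bases before to 50 bases after a transcript start, GRCm38.p6), 3 held this motif, in 3 of their 11 windows, against 7.15% of all 32851 such windows. Myc is named only. The stretches around it are shown because these are promoters of the network whose own letters hold its binding motif. Capitals mark the motif, which starts 3 bases before the transcript start of Max, 123 before that of Mnt and 219 before that of Mxd4. These are the starts RefSeq's windows use, which need not be the outermost one, and against the gene spans given below the motif lies 72 bases inside Max, 5 before Mnt and 219 before Mxd4. The Max stretch lies at chr12:76962226-76962311 on the minus strand, the Mnt stretch at chr11:74830741-74830826 on the plus strand and the Mxd4 stretch at chr5:34187904-34187960 on the minus strand.
Max: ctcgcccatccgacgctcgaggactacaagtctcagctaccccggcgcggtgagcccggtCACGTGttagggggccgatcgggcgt
Mnt: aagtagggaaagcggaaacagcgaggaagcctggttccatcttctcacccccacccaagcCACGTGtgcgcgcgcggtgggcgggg
Mxd4: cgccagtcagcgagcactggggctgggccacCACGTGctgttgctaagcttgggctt
A match describes the letters and shows no binding. The windows of Mycn, Mycl, Mxd1, Mxd3, Mxi1 and Mga did not hold these letters.

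Myc (gene 17869, chr15:61985341-61990361) encodes the MYC protein itself and had the largest log2 difference from thymus among the tested members. On the linear scale of mean scaled RPKM, Myc was 3.76 and 4.38 times thymus in WT-derived and Notch3 KO-derived T-ALL, and the low Mycn was 0.180 and 0.153 times thymus, a larger fold. Its log2 value in thymus ran from 4.63 through a median of 4.89 to 5.64. In WT-derived T-ALL it ran from 6.14 in T-ALL 110 through 6.82 to 7.59 in T-ALL 7. The Notch3 KO-derived T-ALL 1, 2 and 3 read 7.66, 6.50 and 7.09. No T-ALL library reached down into the thymus range. In scaled RPKM, which is per length, the mean was 32.4 ± 10.2 (SD, n = 6) in thymus, 121.6 ± 36.5 (SD, n = 14) in WT-derived T-ALL and 141.9 ± 56.2 (SD, n = 3) in Notch3 KO-derived T-ALL. The log2 difference from thymus was 1.87 ± 0.21 (SE), or 3.67-fold on the offset scale, in WT-derived T-ALL with an adjusted p of 1.6e-07. It was 2.07 ± 0.30 (SE), or 4.21-fold, in Notch3 KO-derived T-ALL with an adjusted p of 1.53e-05. Myc was above every thymus library in 14 of 14 and 3 of 3 tumors. Across all tested genes, 8.42% were higher without overlap in WT-derived T-ALL and 23.9% in the smaller Notch3 KO-derived group. Myc was called higher in both T-ALL groups under every alternative scaling, filter and covariate, in the replicate block and without any single library.

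Mycn (gene 18109, chr12:12936093-12941836) encodes N-MYC, which acts in early progenitors. In thymus it was low, from 1.08 through 1.18 to 1.35 on the log2 scale. WT-derived T-ALL held 0.05 to 0.76 with a median of 0.26, and Notch3 KO-derived T-ALL 1, 2 and 3 held 0.33, 0.13 and 0.32. The T-ALL libraries lay below thymus without overlap, as did 6.64% of all genes in WT-derived T-ALL and 18.4% in Notch3 KO-derived T-ALL. The differences were -0.91 ± 0.12 (SE) and -0.95 ± 0.17 (SE). They are read with the limit given above, that thymus alone carried Mycn past the filter. Mycl (gene 16918, chr4:122995588-123002490), which encodes L-MYC, was 0.00 to 0.37 in thymus and 0.06 to 0.99 in WT-derived T-ALL, where T-ALL 202 was highest. Notch3 KO-derived T-ALL 1, 2 and 3 read 0.77, 0.24 and 0.33, and the ranges overlapped thymus. Of the summed scaled RPKM of the 3 MYC genes, Myc made up 94.5% to 96.5% in thymus, 98.7% to 99.9% in WT-derived T-ALL and 99.5% to 99.7% in Notch3 KO-derived T-ALL.

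**Figure D1:**
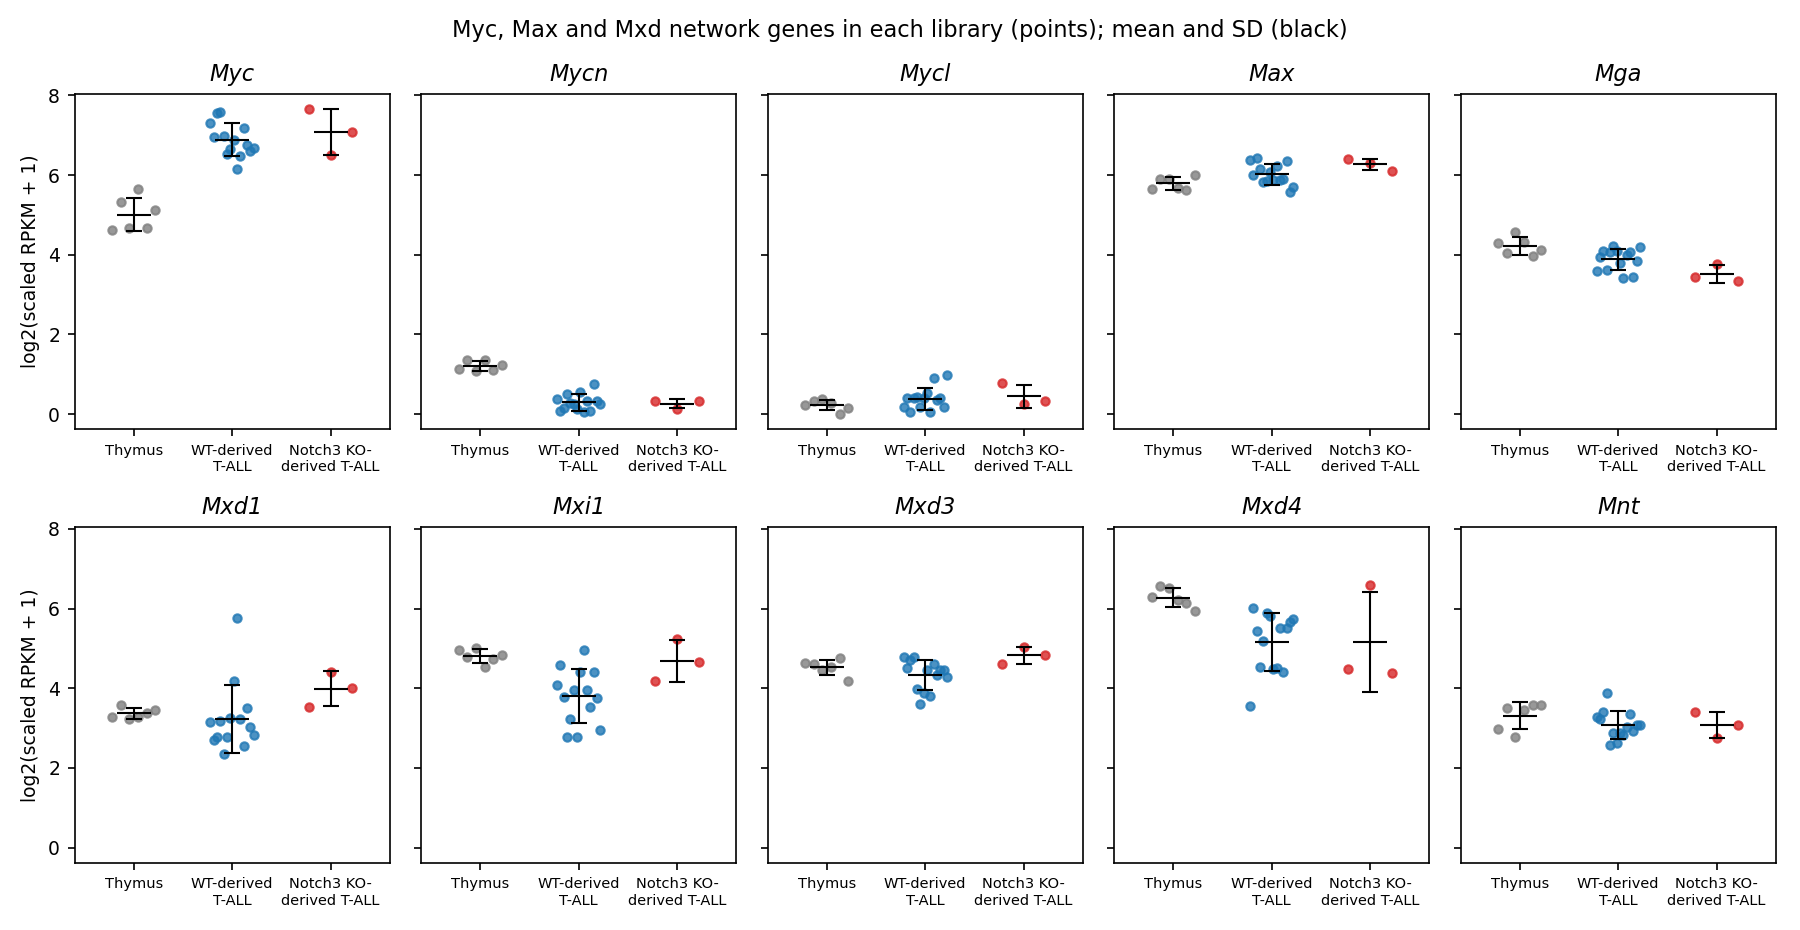
Expression of the 10 network genes in each library, in log2(scaled RPKM + 1) on the vertical axis, by group on the horizontal axis (thymus n = 6, WT-derived T-ALL n = 14, Notch3 KO-derived T-ALL n = 3). Points are libraries and black marks give the mean and SD; Myc separated T-ALL from thymus without overlap, Mxd4 and Mxi1 were spread widely among tumors, and 1 WT-derived T-ALL stood apart for Mxd1 at 5.77.

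Max (gene 17187, chr12:76937269-76962323), the obligate partner of MYC, MXD and MNT proteins, differed less than Myc. Thymus held 5.63 to 6.01 with a median of 5.79, WT-derived T-ALL 5.58 to 6.42 with a median of 5.94, and Notch3 KO-derived T-ALL 1, 2 and 3 read 6.40, 6.30 and 6.11. WT-derived T-ALL straddled thymus, with 6 of 14 libraries above it and 1 below. The difference of 0.22 ± 0.12 (SE) was not called (adjusted p = 0.135), and its sign turned to -0.19 when libraries were scaled to equal sums. In Notch3 KO-derived T-ALL the 3 libraries lay above thymus, with a difference of 0.47 ± 0.18 (SE) and an adjusted p of 0.0403. That call was lost without thymus 1, 4 or 5 or any of the 3 tumors (adjusted p 0.0567 to 0.152). It was also lost under quantile normalization (log2 difference 0.30), under equal sums (0.01), and with the erythroid (0.76) or neutrophil (0.48) covariate.

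Of the 5 MXD and MNT repressors 2, Mxd4 and Mxi1, were called lower in WT-derived T-ALL, beside 22.3% of all genes. The other 3 had small negative values that were not called, of which Mxd3 and Mnt were positive with the erythroid covariate (0.14 and 0.75), and the mean scaled RPKM of Mxd1 was 1.17 times that of thymus. Their summed scaled RPKM was 63.97 to 124.2 in WT-derived T-ALL, below the 125.9 to 165.3 of thymus without overlap, and 81.9, 190.3 and 93.9 in Notch3 KO-derived T-ALL 1, 2 and 3. As scaled by the authors, Mxd1, Mxd3 and Mnt were not called in either T-ALL group, but under equal sums Mxd3 (-0.59, adjusted p = 0.0324) and Mnt (-0.61, adjusted p = 0.0334) were called lower in WT-derived T-ALL. Mxd4 (gene 17122, chr5:34176580-34187710), expressed in resting and differentiating cells, was the most abundant repressor in all 6 thymus libraries. It ran from 5.94 through 6.25 to 6.57 in thymus and from 3.54 in T-ALL 3 through 5.47 to 6.01 in T-ALL 4 among WT-derived tumors. Notch3 KO-derived T-ALL 1, 2 and 3 read 4.48, 6.60 and 4.37. Of the WT-derived tumors 13 of 14 fell below every thymus library, whereas Notch3 KO-derived T-ALL 2 lay above every thymus library. The difference was -1.12 ± 0.33 (SE) in WT-derived T-ALL with an adjusted p of 0.00704, and it was not called with the erythroid (-1.49, adjusted p = 0.156) or the neutrophil covariate (-0.41, adjusted p = 0.455). In Notch3 KO-derived T-ALL it was -1.13 ± 0.48 (SE) and not called (adjusted p = 0.0655), but without T-ALL 2 it was -1.85 with an adjusted p of 0.0045. T-ALL 2 also had the highest erythroid marker mean of all libraries, 7.52. The Notch3 KO-derived value was called as well under quantile normalization (-1.24), under equal sums (-1.58) and in a fit of only that group and thymus.

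Mxi1 (gene 17859, chr19:53310128-53373293), an antagonist that binds MAX and SIN3, held 4.53 to 5.01 in thymus with a median of 4.80. WT-derived T-ALL ran from 2.76 in T-ALL 7 through 3.86 to 4.95 in T-ALL 110. Notch3 KO-derived T-ALL 1, 2 and 3 read 4.18, 5.23 and 4.66. In the WT-derived group 12 of 14 tumors were below thymus, and the difference was -1.01 ± 0.27 (SE) with an adjusted p of 0.00305, and -1.56 without a call with the erythroid covariate (adjusted p = 0.0591). The Notch3 KO-derived group overlapped thymus on both sides, with a difference of -0.11 ± 0.38 (SE) and an adjusted p of 0.836. Its sign turned to 0.14 without T-ALL 1.

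Mxd1 (gene 17119, chr6:86647044-86669234), induced as myeloid and other cells leave the cycle, was 3.24 to 3.58 in thymus with a median of 3.33. WT-derived T-ALL held 2.35 to 4.17 in 13 tumors and 5.77 in T-ALL 110, with a median of 3.09 over all 14. Notch3 KO-derived T-ALL 1, 2 and 3 read 3.53, 4.41 and 4.01. Most WT-derived tumors, 10 of 14, were below every thymus library, although T-ALL 110 was far above. The mean difference was -0.14 ± 0.32 (SE, adjusted p = 0.74), and -0.33 without T-ALL 110 (adjusted p = 0.153). T-ALL 110 also held the highest neutrophil marker mean, 10.36. With the neutrophil mean as a covariate, a fit added after the values were seen, the difference was -1.02 and called (adjusted p = 0.0315). That was the lowest adjusted p of all fits, which ran up to 0.871. Neutrophil means of thymus and WT-derived T-ALL did not overlap, so the fit reaches beyond values that both groups share. Among WT-derived tumors the relation of Mxd1 with that mean rests on T-ALL 108 and 110. For Notch3 KO-derived T-ALL the difference was 0.62 ± 0.47 (SE) without a call (adjusted p = 0.31), and -0.10 with the neutrophil covariate. It was called only in a fit of that group and thymus alone (adjusted p = 0.0177).

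Mxd3 (gene 17121, chr13:55325170-55329900), the MXD gene linked to the S phase of dividing cells, was 4.19 to 4.75 in thymus, 3.59 to 4.79 in WT-derived T-ALL, and 4.61, 5.03 and 4.83 in Notch3 KO-derived T-ALL 1, 2 and 3. The groups overlapped, with medians of 4.57 and 4.45 in thymus and WT-derived T-ALL. The differences were -0.20 ± 0.16 (SE) and 0.30 ± 0.23 (SE) with adjusted p-values of 0.311 and 0.318, and under equal sums they were -0.59 and -0.15. Mnt (gene 17428, chr11:74830806-74845725), an antagonist present in cycling and resting cells alike, was 2.76 to 3.58 in thymus, 2.57 to 3.89 in WT-derived T-ALL, and 3.40, 2.76 and 3.07 in Notch3 KO-derived T-ALL 1, 2 and 3. Medians were 3.48 in thymus and 3.05 in WT-derived T-ALL, and both T-ALL groups overlapped thymus. The difference was -0.24 in each T-ALL group (SE 0.17 and 0.24, adjusted p 0.236 and 0.46). For Notch3 KO-derived T-ALL it was -0.40 without T-ALL 1 and -0.08 without T-ALL 2, and called in neither fit.

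Mga (gene 29808, chr2:119872503-119970129), a large MAX-binding protein and scaffold of the Polycomb complex PRC1.6, was lower in both T-ALL groups. It held 3.95 to 4.57 in thymus with a median of 4.20, 3.40 to 4.21 in WT-derived T-ALL with a median of 3.96, and 3.44, 3.76 and 3.33 in Notch3 KO-derived T-ALL 1, 2 and 3. The 3 Notch3 KO-derived tumors lay below every thymus library, as did 7 of the 14 WT-derived tumors, so the latter group overlapped thymus. The difference of -0.33 ± 0.13 (SE) in WT-derived T-ALL had an adjusted p of 0.038. It lost its call without thymus 1, 3 or 4 or without T-ALL 3, 7, 108 or 110 (adjusted p 0.0503 to 0.119) and with the neutrophil covariate (-0.05). In Notch3 KO-derived T-ALL the difference was -0.70 ± 0.19 (SE) with an adjusted p of 0.00572. Mga was not called in either T-ALL group with the erythroid covariate (-0.47 and -0.92, adjusted p 0.269 and 0.253), nor in Notch3 KO-derived T-ALL with the neutrophil covariate (-0.47, adjusted p = 0.0679).

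In WT-derived T-ALL against thymus, 1 of 9 tested members was called higher (29.3% of all 11919 genes) and 4 were called lower (22.3% of all genes), Mycn among them, so that 5 were called in either direction beside 51.6% of all genes. For Notch3 KO-derived T-ALL 2 were higher (21.2% of all genes) and 2 lower (16.3%), again with Mycn, which makes 4 in either direction beside 37.5% of all genes. With the mean of the erythroid markers as a covariate, whose ranges in thymus and T-ALL did not overlap, Myc and Mycn were called in WT-derived T-ALL and Myc alone in Notch3 KO-derived T-ALL. Mycn adds nothing to these counts as evidence, since it entered the test through its thymus values. The median log2 difference over the 9 tested members was -0.24 and -0.11 in the same order, and over all tested genes 0.08 and 0.08. Scaling to equal sums moved the median of all genes by -0.35 and -0.39. Relative to the median of all genes, Myc was then still 1.74 and 1.93 higher, Mxd4 was 1.26 lower in both, and Max was 0.08 and 0.33 higher.

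**Figure D2:**
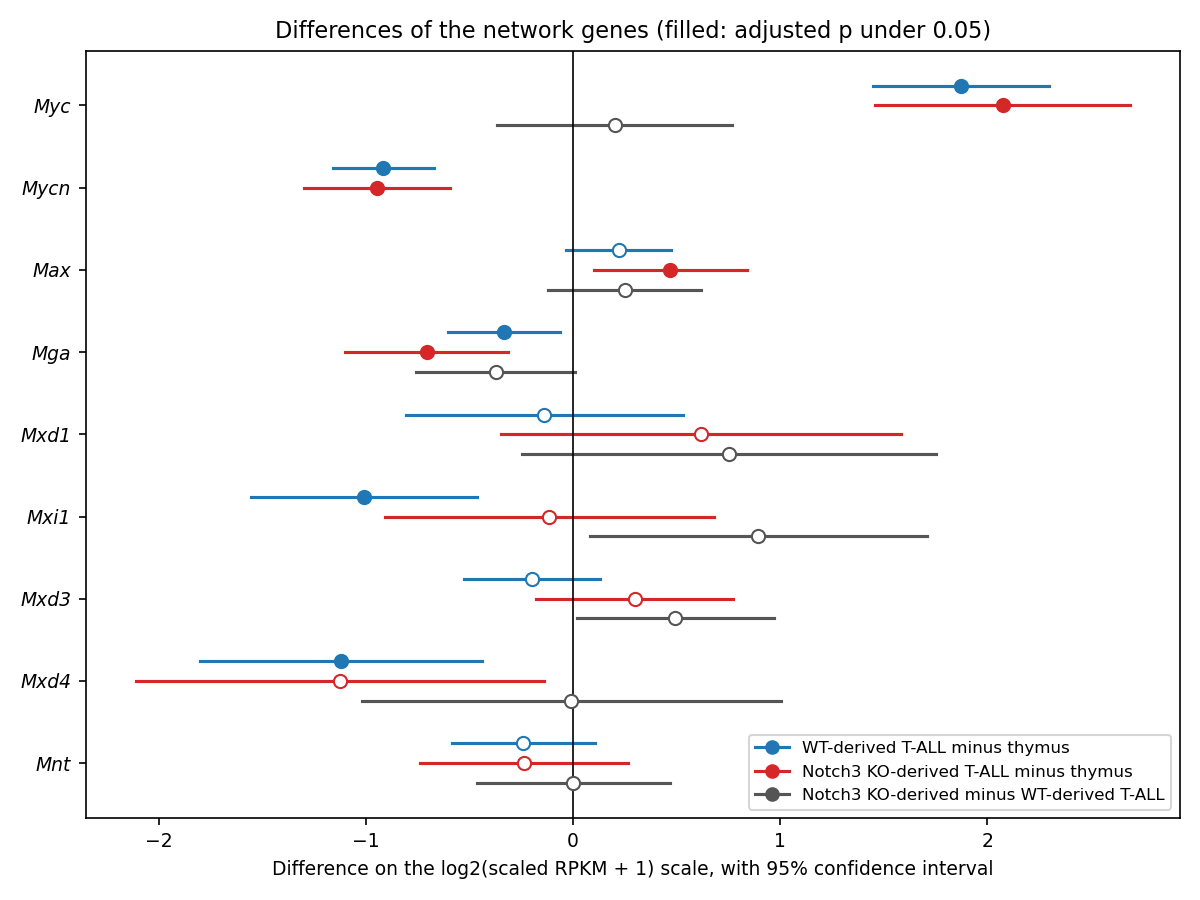
Differences of 9 network genes on the log2(scaled RPKM + 1) scale (horizontal axis) with 95% confidence intervals from limma, in 3 comparisons by color; filled points were called at an adjusted p under 0.05 and Mycl was not tested. Myc lay near 2 in both comparisons with thymus, and every point of Notch3 KO-derived minus WT-derived T-ALL is open.

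Between the T-ALL groups, 0 of 8 tested members were called by limma, against 0.617% of all 11677 genes (0.591% higher and 0.0257% lower in Notch3 KO-derived T-ALL). None of the 8 parted the groups without overlap, as 0.325% of all genes did upward and 0.111% downward. At an unadjusted p under 0.05 there were 2 of 8, Mxi1 and Mxd3, beside 8.51% of all genes. Mxi1 was 0.89 ± 0.39 (SE) higher in Notch3 KO-derived than in WT-derived T-ALL, with a 95% interval of 0.08 to 1.71 and an adjusted p of 0.485. Mxd3 was 0.49 ± 0.23 (SE) higher, with an interval of 0.02 to 0.97 and an adjusted p of 0.551. For Myc the difference was 0.20, and its interval of -0.37 to 0.77 includes no difference, and without T-ALL 1 the value was -0.09. Intervals were -0.12 to 0.62 for Max, -0.24 to 1.75 for Mxd1, -1.02 to 1.00 for Mxd4, -0.46 to 0.47 for Mnt and -0.76 to 0.01 for Mga. With 3 tumors in the smaller group, such intervals admit differences of up to 1 log2 unit or more for Mxd1, Mxi1 and Mxd4. No member was called in any alternative fit of this comparison.

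The order of the members by abundance differed between thymus and T-ALL on the scaled RPKM scale, which is per length. In thymus Mxd4 led with 77.3 ± 12.7 (SD, n = 6), followed by Max with 54.8 ± 6.28 and Myc with 32.4 ± 10.2. Myc and the next gene, Mxi1 with 27.1 ± 3.25, differed by less than the larger SD, as did Mxd1 with 9.36 and Mnt with 9.16. In WT-derived T-ALL Myc led with 121.6 ± 36.5 (SD, n = 14), followed by Max with 64.7 ± 12.1 and Mxd4 with 38.7 ± 16.8. Below them came Mxd3 (19.7), Mxi1 (14.3), Mga (14.0), Mxd1 (10.9) and Mnt (7.65), where each gap between neighbours from Mxd3 to Mnt was smaller than the larger SD. In Notch3 KO-derived T-ALL Myc again led, followed by Max with 76.2 ± 7.71 and Mxd4 with 45.6 ± 43.5 (SD, n = 3). There the gaps from Max down to Mxi1 (26.0) and from Mxd1 (15.3) to Mga (10.5) were smaller than the larger SD. Myc exceeded Max in 0 of 6 thymus libraries, 13 of 14 WT-derived and 3 of 3 Notch3 KO-derived tumors, the exception being T-ALL 110.

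Set against each other in scaled RPKM, the 3 MYC genes summed to 25.1 to 50.8 in thymus and the 5 MXD and MNT genes to 125.9 to 165.3. Their log2 ratio was -2.61 to -1.42 in thymus, with a median of -2.24. In WT-derived T-ALL the ratio was -0.84 in T-ALL 110 to 1.33 in T-ALL 7, with a median of 0.18, and it was above 0 in 10 of 14 tumors. Notch3 KO-derived T-ALL 1, 2 and 3 read 1.30, -1.09 and 0.53. Every tumor lay above the thymus range, T-ALL 2 of the Notch3 KO-derived group by the least. This ratio is a description of mRNA and was not tested, and it contains Myc, whose difference is given above. The log2 ratio of Myc to Max was -1.28 to -0.04 in thymus and -0.09 to 1.45 in WT-derived T-ALL, where T-ALL 110 alone was below 0, and Notch3 KO-derived T-ALL 1, 2 and 3 read 1.27, 0.20 and 0.99.

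**Figure D3:**
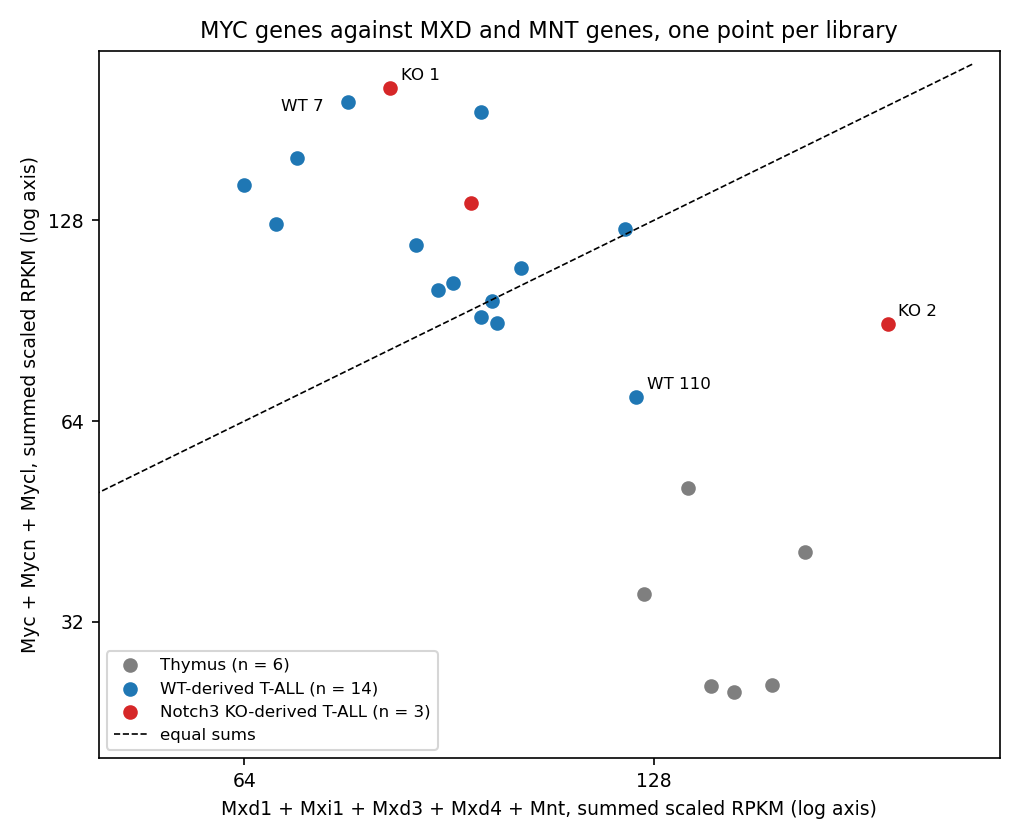
Summed scaled RPKM of Myc, Mycn and Mycl (vertical log axis) against that of Mxd1, Mxi1, Mxd3, Mxd4 and Mnt (horizontal log axis), with 1 point for each of the 23 libraries and a dashed line where both sums are equal. The 6 thymus libraries lie far below the line, 10 of 14 WT-derived and 2 of 3 Notch3 KO-derived tumors lie above it, and WT-derived T-ALL 110 and Notch3 KO-derived T-ALL 2 are the tumors closest to thymus.

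The makeup of the repressor sum also differed from tumor to tumor. Mxd4 supplied 48.0% to 57.6% of it in thymus, but 15.2% to 62.7% in WT-derived T-ALL and 21.0% to 50.4% in Notch3 KO-derived T-ALL. It was the largest repressor in 6 of 6 thymus libraries, 11 of 14 WT-derived and 1 of 3 Notch3 KO-derived tumors. Mxd3 supplied 13.4% to 18.3% in thymus and 10.5% to 38.2% in WT-derived T-ALL. Mxd1 supplied 5.38% to 7.97% in thymus and 43.1% in T-ALL 110. The repressor sum itself was lowest in WT-derived T-ALL 120 at 63.97 scaled RPKM and highest in Notch3 KO-derived T-ALL 2 at 190.3.

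**Figure D4:**
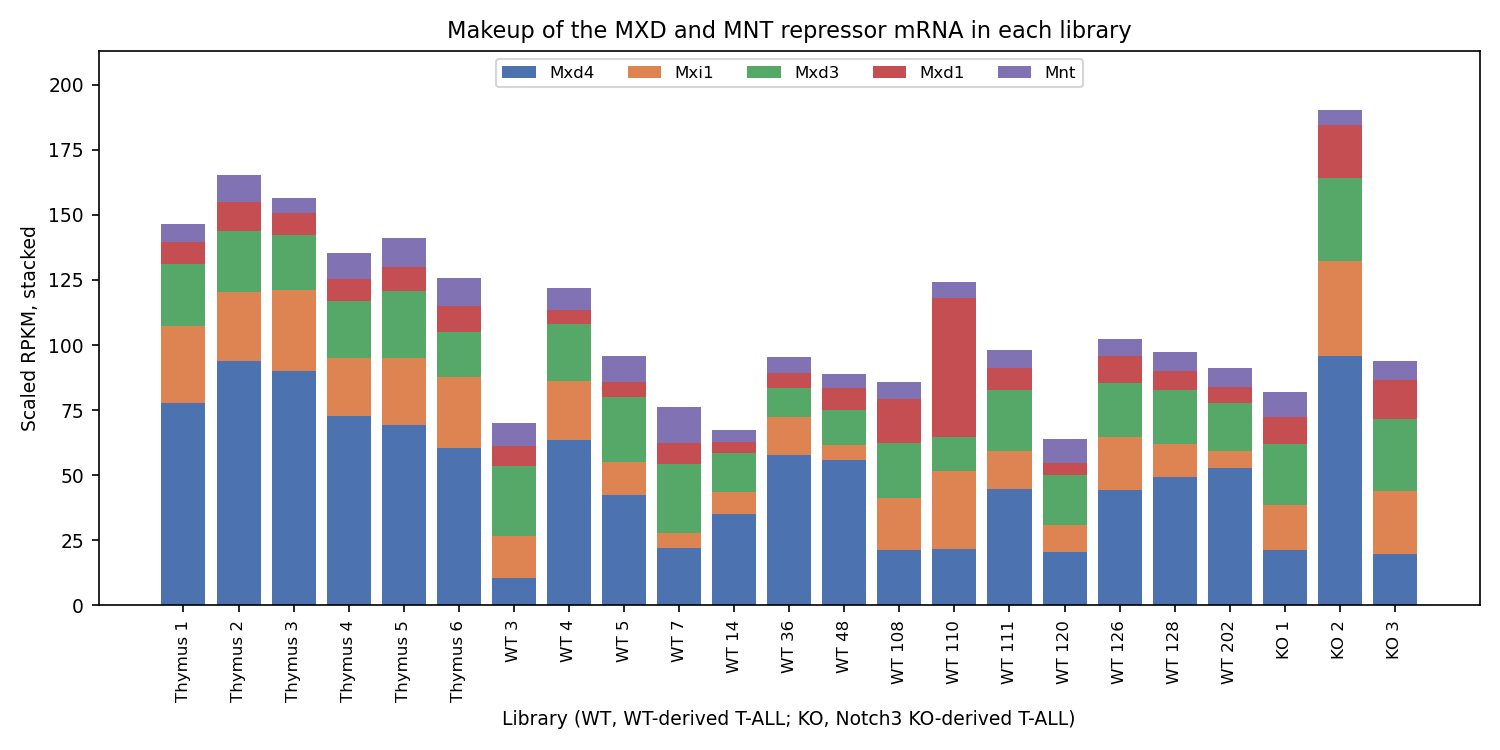
Stacked scaled RPKM of Mxd4, Mxi1, Mxd3, Mxd1 and Mnt (vertical axis) in each library (horizontal axis), where WT and KO stand for WT-derived and Notch3 KO-derived T-ALL. Mxd4 filled the largest part of every thymus bar, Mxd1 that of WT-derived T-ALL 110, and Notch3 KO-derived T-ALL 2 had the tallest bar at 190.3.

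Of 16 Notch pathway genes and other regulators upstream of Myc, 6 were higher and 5 lower in WT-derived T-ALL and 4 were higher and 5 lower in Notch3 KO-derived T-ALL, with medians of 0.10 and -0.13 against 0.08 for all genes in both. Of all genes 29.3% were higher and 22.3% lower in WT-derived T-ALL, and 21.2% and 16.3% in Notch3 KO-derived T-ALL, with the higher counts near these shares. With the erythroid covariate 5 and 1 of these genes were called. The Notch feedback genes Dtx1 and Hes1 rose by 3.04 ± 0.40 (SE) and 2.98 ± 0.31 (SE) on the log2 scale in WT-derived T-ALL, and the receptor Notch1 by 1.87 ± 0.24 (SE). Their rises in Notch3 KO-derived T-ALL were 2.74, 2.01 and 1.91, and Hes1 there was above thymus in 2 of 3 tumors and 2.95 higher without T-ALL 2. Bcl6, a transcriptional repressor that drives the germinal center and follicular helper programs, fell by 2.82 and 2.69 in the same order, and Myb, a progenitor transcription factor, fell by 1.00 and 1.35. The Notch coactivator Maml1 fell by 0.85 in WT-derived T-ALL, and the T-cell factor Ets1 fell by 1.03 in Notch3 KO-derived T-ALL. Both means were lower in the other T-ALL group as well. Maml1 was 3.93 in thymus and 2.99 in Notch3 KO-derived T-ALL, and Ets1 was 8.39 in thymus and 7.56 in WT-derived T-ALL.

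Over the 14 WT-derived tumors, the level of Myc was compared with that of these genes by permutation tests. Of 8 relations examined none had an adjusted permutation p under 0.05. Pearson's r was 0.06 with Notch1 (Spearman's rho -0.19, permutation p 0.851 and 0.522), 0.39 with Hes1 (rho 0.38, permutation p 0.175 and 0.182) and -0.12 with Dtx1 (rho -0.09, permutation p 0.676 and 0.762). It was -0.09 with Notch3 (rho -0.32, permutation p 0.748 and 0.259) and 0.39 with Max (rho 0.39, permutation p 0.167 and 0.162). The lowest Benjamini-Hochberg adjusted p was 0.468 for r and 0.373 for rho. Without the 2 tumors farthest from the median of the other gene, r was -0.27 with Notch1, -0.04 with Hes1, -0.03 with Dtx1, -0.55 with Notch3 and 0.05 with Max.

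Myc lies on chromosome 15, whose 472 tested genes had a median difference from thymus 0.23 to 0.47 above that of all autosomal genes in 14 of 17 tumors. In WT-derived T-ALL 5, 36 and 48 the same value was 0.00084, -0.063 and -0.076, and single thymus libraries held -0.035 to 0.020. A relation of Myc with the chromosome 15 median over the 14 WT-derived tumors was not detected by permutation (r = 0.15, rho = 0.30, permutation p 0.604 and 0.303, r = -0.10 without T-ALL 36 and 48). Among 11 tested genes near Myc, 9 were higher and 1 lower in WT-derived T-ALL, beside 29.3% of all genes higher. In Notch3 KO-derived T-ALL 6 were higher and 1 lower, beside 21.2% of all genes higher. Their medians were 0.87 and 0.77 in the same order. The share called over the whole of chromosome 15 was not counted, so an excess near Myc beyond that of the chromosome was not tested. Pvt1, the noncoding gene beside Myc, was 0.38 to 0.57 in thymus and 0.96 to 2.85 in WT-derived T-ALL on the log2 scale. It passed the filter only through T-ALL libraries, where it was high, so its differences of 1.43 ± 0.22 (SE) and 1.35 ± 0.32 (SE) are given as a description. It is among the rises counted in both groups, and without it 8 and 5 of 10 genes were higher. Ndufb9, a subunit of respiratory complex I, rose by 1.08 and 1.59, and Trib1, a pseudokinase, rose by 1.09 in WT-derived T-ALL. Asap1, an Arf regulator, rose by 1.02 in Notch3 KO-derived T-ALL, and Mtss1, an actin-membrane linker, fell by 1.07 and 0.98. Of these 11 genes 6 and 3 were called under equal sums and 2 and 0 with the erythroid covariate, and without Notch3 KO-derived T-ALL 1 there were 4 calls in that group.

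The gene lists used here were written with earlier results of these data known, so their counts are a description. Most listed genes that MYC is known to induce were called higher in T-ALL. Of 35 such genes for nucleolar proteins, metabolism and growth, 33 were higher and 1 lower in WT-derived T-ALL, and 32 were higher and 1 lower in Notch3 KO-derived T-ALL. The medians were 1.11 and 1.22, against 0.08 for all genes, of which 29.3% and 21.2% were higher. Of 34 and 33 calls in either direction, 15 and 2 were left with the erythroid covariate. Srm, spermidine synthase of polyamine synthesis, rose by 1.63 ± 0.23 (SE) and 1.99 ± 0.33 (SE). In WT-derived T-ALL the nucleolar gene Gnl3 rose by 1.59 ± 0.22 (SE) and Npm1 was 3.03-fold higher on the offset scale. Odc1, the rate-limiting enzyme of polyamine synthesis, rose by 2.18 and the rRNA methyltransferase Fbl by 1.79 in Notch3 KO-derived T-ALL. Ccnd2, which encodes cyclin D2 and is on the same list, fell by 3.12 ± 0.37 (SE) and 3.05 ± 0.54 (SE), from 3.93 to 5.63 in thymus to 0.54 to 3.35 in WT-derived T-ALL. A relation of the mean of the list with Myc over WT-derived tumors was not detected by permutation (r = 0.19, rho = 0.38, permutation p 0.507 and 0.185), and without T-ALL 5 and 14 r was 0.64. With the proliferation markers r was 0.40 (rho 0.38, permutation p 0.156 and 0.187), and 0.34 without T-ALL 36 and 126.

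Of 10 tested genes that MYC is known to repress, 0 were higher and 5 lower in WT-derived T-ALL and 1 was higher and 5 lower in Notch3 KO-derived T-ALL, with medians of -0.47 and -0.59, beside 22.3% and 16.3% of all genes lower. Cebpa, a myeloid transcription factor gene of the list, passed the filter only through T-ALL libraries and was not called. With the erythroid covariate 1 and 0 were called, Ndrg2 turned to 0.0739, and Cdkn1b had adjusted p-values of 0.0966 and 0.593. The cell cycle inhibitor Cdkn1b (p27) fell by 1.57 ± 0.22 (SE) and 1.42 ± 0.33 (SE), and the cyclin-related Ccng2 by 1.46 and 1.40. Ndrg2, a stress-response gene, fell by 0.84 in WT-derived T-ALL, and the zinc finger gene Klf6 fell by 1.35 in Notch3 KO-derived T-ALL. The DNA damage gene Gadd45a rose by 1.21 in Notch3 KO-derived T-ALL. Its difference was 0.78 without a call under equal sums (adjusted p = 0.0689) and turned to -0.31 with the erythroid covariate. Without thymus 1, 5 or 6 the count of calls in WT-derived T-ALL was 3. The 6 calls in Notch3 KO-derived T-ALL became 3 to 5 in every fit that left out 1 library, and 3 without T-ALL 2.

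Coactivators and corepressors of the network were counted in the same way. Of 13 coactivators of MYC, 5 were higher in WT-derived and 4 in Notch3 KO-derived T-ALL and none was lower, with a median of 0.06 in both, beside 29.3% and 21.2% of all genes called higher, and 2 and 0 were called with the erythroid covariate. The helicases Ruvbl1 and Ruvbl2 of the TIP60 complex rose by 0.86 and 0.68 in WT-derived and by 1.05 and 0.72 in Notch3 KO-derived T-ALL, and the histone acetyltransferase Kat2a (GCN5) by 0.83 and 0.96. Of 12 corepressors, 3 were higher and 3 lower in WT-derived T-ALL and 2 were higher and 2 lower in Notch3 KO-derived T-ALL, with medians of -0.21 and -0.08, beside 22.3% and 16.3% of all genes lower. These counts are near the background, and 0 were called in either group with the erythroid covariate by limma. The histone-binding subunits Rbbp7 and Rbbp4 rose by 0.63 and 0.43 in WT-derived and by 0.60 and 0.65 in Notch3 KO-derived T-ALL, and Sap30 of the SIN3 complex rose by 0.61 in WT-derived T-ALL. Sin3b, a scaffold of that complex, fell by 0.86 ± 0.22 (SE) in WT-derived T-ALL, without overlap. The MYC-binding Zbtb17 (MIZ-1) fell by 0.60 and 0.58, and the nuclear receptor corepressor Ncor1 by 0.47 and 0.50. With the erythroid covariate Rbbp4 turned to -0.22 and -0.37, and Ncor1 to 0.0029 and 0.24. The corepressor count in Notch3 KO-derived T-ALL fell from 4 to 2 without thymus 4, to 1 without thymus 5 or 6 and to 0 without T-ALL 1 or 3.

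The other subunits of the PRC1.6 complex are given beside Mga. Of 10 genes, 6 were higher and 0 lower in WT-derived T-ALL and 3 were higher and 1 lower in Notch3 KO-derived T-ALL, with a median of 0.48 in both. The shares of all genes were 29.3% higher and 22.3% lower in WT-derived T-ALL and 21.2% and 16.3% in Notch3 KO-derived T-ALL, and the counts in the latter are near them. With the erythroid covariate 2 and 0 were called. Tfdp1 and E2f6, which form its DNA-binding dimer, rose by 1.00 ± 0.13 (SE) and 0.93 ± 0.15 (SE) in WT-derived T-ALL and by 0.80 and 1.09 in Notch3 KO-derived T-ALL. Yaf2 rose by 0.75 in WT-derived T-ALL, and Wdr5 by 0.71 in Notch3 KO-derived T-ALL, where the ubiquitin ligase Rnf2 fell by 0.81. Their means went the same way in the other T-ALL group. Yaf2 was 3.43 and Wdr5 5.15 there, against 2.89 and 4.57 in thymus, and Rnf2 was 4.85 against 5.15. In the parallel MLX branch, 2 of 4 tested genes were lower in each T-ALL group and none was higher, with medians of -0.40 and -0.48, beside 22.3% and 16.3% of all genes lower. With the erythroid covariate 1 and 0 were called. Mlx itself fell by 0.65 and 0.75, and its target Txnip, an inhibitor of glucose uptake, fell by 1.34 ± 0.24 (SE) and 1.11 ± 0.34 (SE). Without Notch3 KO-derived T-ALL 1, 1 of these genes was called in that group.

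Of 14 genes for turnover of the MYC protein, 3 were higher and 3 lower in WT-derived T-ALL and 3 were higher and 2 lower in Notch3 KO-derived T-ALL, with medians of -0.06 and -0.10. These counts are near or below the shares of all genes (29.3% higher and 22.3% lower, and 21.2% and 16.3%). With the erythroid covariate 3 and 0 were called. The ubiquitin ligase subunit Skp2 rose by 1.15 ± 0.16 (SE) and 1.08 ± 0.24 (SE), and the kinase Aurka by 0.84 and 1.07. Gsk3b, the kinase that marks MYC for the ubiquitin ligase FBXW7, fell by 0.81 ± 0.15 (SE) and 1.07 ± 0.21 (SE). Fbxw7 fell by 0.71 ± 0.15 (SE) and the deubiquitinase Usp22 by 0.39 in WT-derived T-ALL. The phosphatase subunit Ppp2r5a fell by 0.64 in Notch3 KO-derived T-ALL and turned to 0.52 with the erythroid covariate. Some calls named above rest on single libraries. In WT-derived T-ALL, Rbbp4 was not called without thymus 4, 5 or 6, Usp22 without thymus 2 or 4, and Ndrg2 without thymus 5 or 6 (adjusted p 0.0542 to 0.137). In Notch3 KO-derived T-ALL, Txnip was not called without T-ALL 1 (-0.91), Rnf2 without T-ALL 2 (-0.55), Ppp2r5a without T-ALL 3 (-0.52), Klf6 without T-ALL 1 (-1.32) or 2 (-1.23), and Ruvbl2, Rbbp7, Zbtb17 and Mtss1 without T-ALL 1 or 3. Rbbp7 was not called without thymus 5 or 6 either, and Rbbp4 and Ncor1 without any of the 3 tumors or several thymus libraries. Between the T-ALL groups 1 of 125 tested entries of these 9 lists was called, Gadd45a. Wdr5 is entered on both the coactivator and the PRC1.6 list. The share is 0.80% beside 0.617% of all genes and so near the background.

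Among the tumors, some members moved with markers of other cell types. Of 36 relations between the 9 tested members and 4 marker means over the 14 WT-derived tumors, 2 had an adjusted permutation p under 0.05 for Pearson's r. Mxd1 correlated with the neutrophil mean (r = 0.83, permutation p = 0.00126, adjusted p = 0.0227, and rho = 0.64, permutation p = 0.0155, adjusted p = 0.255). That relation rests on T-ALL 108 and 110, without which r was 0.31. Mnt correlated inversely with the erythroid mean (r = -0.77, permutation p = 0.00126, adjusted p = 0.0227, and rho = -0.74, permutation p = 0.0039, adjusted p = 0.14), and r was -0.55 without T-ALL 5 and 7. Mga with the neutrophil mean gave r = -0.65 (rho = -0.62, permutation p 0.0114 and 0.0212, adjusted p = 0.137 and 0.255). Myc gave -0.54 with the erythroid and -0.52 with the neutrophil mean (rho -0.43 and -0.41, permutation p for r 0.0477 and 0.056, adjusted p = 0.336 for both), and -0.12 and -0.30 without the 2 farthest tumors. The 4 relations of Mycn ran over libraries that did not reach the filter and are not read. Neither Mxd4 nor Mxi1 had an adjusted p under 0.05 with any of the 4 marker means.

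**Figure D5:**
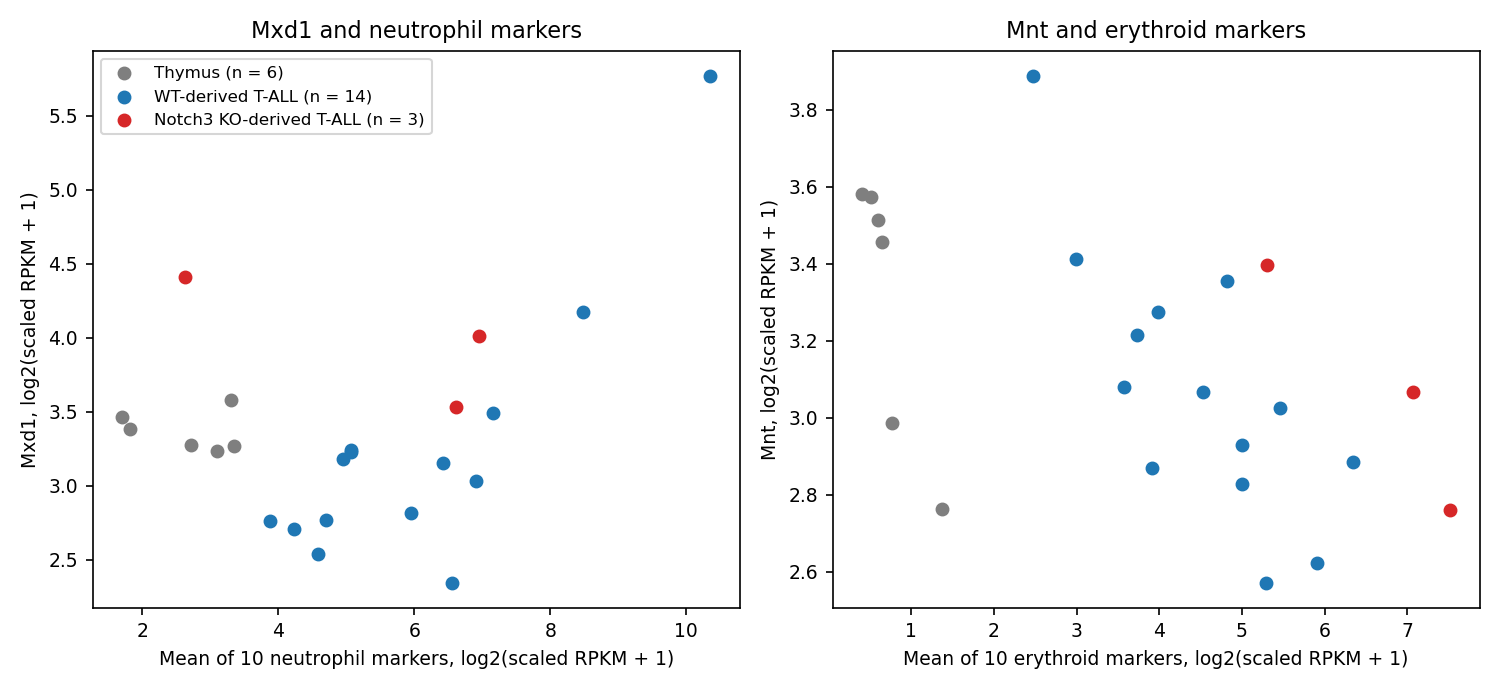
Mxd1 against the mean of 10 neutrophil markers (left) and Mnt against the mean of 10 erythroid markers (right), all in log2(scaled RPKM + 1), with 1 point for each library and color for group. The Mxd1 relation among WT-derived T-ALL rests on 2 tumors at the upper right, and Mnt falls with the erythroid mean over the 14 WT-derived tumors (r = -0.77).

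As a description with no test, 8045 genes whose scaled RPKM averaged 5 or more in WT-derived T-ALL, leaving out predicted and antigen receptor genes, were ranked by their Pearson correlation with each member over the 14 tumors, which share libraries and scaling. The genes most like Myc were Vegfb (0.91), Cdk8 (0.89) and Poli (0.86). For Max they were Map7d1 (0.87), Mrpl43 (0.82) and Ube2g2 (0.81), and no likeness is read for Mycn, which reached a scaled RPKM of 1 in none of the 14 tumors. Among the genes most like Mxd1 were the myeloid genes Alox5 (0.94) and Plaur (0.94). Mxd1 stood apart at 5.77 in T-ALL 110, and r without that tumor was not computed. All values of r given here are the highest of 8045 and were picked for their size. Mxd3 was most like Pidd1 (0.92), the mitotic regulator Foxm1 (0.92) and Lmf2 (0.91), Mxd4 most like Trib2 (0.86), Sptan1 (0.85) and P3h4 (0.84), and Mxi1 most like Kctd20 (0.78), Ppp1r15b (0.77) and Pgam1 (0.76). Mnt was most like Rfx1 (0.95), Map1s (0.94) and Gga3 (0.93), and Mga most like Zfp148 (0.95), the thymocyte gene Themis (0.92) and Pggt1b (0.91).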

How the data were processed

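RNA-seq was available from 6 thymus, 14 WT-derived T-ALL and 3 Notch3 KO-derived T-ALL libraries. By the study's methods, the authors made stranded KAPA mRNA libraries, sequenced 100 bp paired ends, and used OSA, the aligner of the ArrayStudio package, on an mm10 transcriptome. The version is not given in the sources used here. They deposited log2 values per gene. From the values, these are log2(RPKM + 1) with RPKM scaled to a 75th percentile of 9.99 to 10 in each library. No counts were used, so precision rests on the spread between libraries. The study describes its thymus and T-ALL samples as individual mice, which the labels of the thymus samples do not state, and p-values measure the spread between these samples. No batch is named in the labels or headers.

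Genes with 3 or more fitted libraries at or above 1 scaled RPKM were fitted with limma 3.58.1 (trend and robust, R 4.3.3), with all 3 groups in the fits against thymus and the T-ALL groups alone in the fit between them. The fit was tested on simulated data. Correlations used 100000 permutations, two-sided (Python 3.11.15, NumPy 2.4.6, SciPy 1.17.1). Gene IDs of 24375 genes matched RefSeq on GRCm38.p6, which gave places and promoter windows, and 27 symbols that had turned into dates were restored by ID. The members and gene lists were chosen with earlier results of these data known. Named genes are the members, of each list of network genes up to 3 called rises and 3 called falls of largest size per comparison (predicted genes left out), and the 3 genes most like each member except the low Mycn and Mycl, of which 1 is not reported here. A list gene given for only 1 T-ALL group was among the largest calls there, which does not mean that the other group differed. Marker lists were counted only. Alternatives were an offset of 0.1, no filter, a filter at 5, quantile normalization, equal sums without mitochondrial and hemoglobin genes, no trend or robust step, an erythroid covariate, a replicate block, another choice of groups, each library left out and, added after seeing the data, a neutrophil covariate and, between the T-ALL groups, the block in a fit of all 3 groups.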

Additional observations from a re-analysis of the deposited data

Results flagged for a closer look

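Gadd45a, a DNA damage gene from the list of genes repressed by MYC, differed between Notch3 KO-derived and WT-derived T-ALL by 1.37 (limma, adjusted p = 0.0373). It was the 1 called gene of 125 tested list entries (0.80%, beside 0.617% of all genes) between the T-ALL groups. Its log2 value was 4.10 to 5.13 in Notch3 KO-derived T-ALL, 2.58 to 4.23 in WT-derived T-ALL and 3.09 to 3.95 in thymus. The difference was 1.14 to 1.66 when each library was left out in turn, and the call was lost in 10 of those fits, with adjusted p-values of 0.371 without Notch3 KO-derived T-ALL 2 and 0.432 without T-ALL 3. With the erythroid markers as a covariate it was 0.78 (adjusted p = 0.962). The call was also lost with an offset of 0.1 (adjusted p = 0.0568), a filter at 5 (0.0857) and equal sums (0.0691).

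Tfdp1, a subunit of the PRC1.6 complex, had 1 thymus library at 5.82 apart from the other five, with a gap of 0.691 of the group's range. It is 1 of 55 genes examined in this way, where chance gives about 1 in 20, and no network member stood apart in thymus.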

How the results depend on the processing

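Depth could not be weighed without counts. The 5 members called in WT-derived T-ALL against thymus were 4 to 5 without any single library, and the 4 called in Notch3 KO-derived T-ALL were 3 to 4. With the erythroid covariate there were 2 and 1, with the replicate block 2 and 2, and with the neutrophil covariate 2 in Notch3 KO-derived T-ALL. In the test between the T-ALL groups 0 members were called by limma in every alternative. The causes of these changes were not tested.

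Equal sums reversed Max to -0.19 in WT-derived and Mxd3 to -0.15 in Notch3 KO-derived T-ALL, and split the calls over all genes into 1869 higher and 4618 lower (3493 and 2657 as reported) and into 1273 and 3614 (2527 and 1948). With quantile normalization the split was 2942 and 3044, and 2082 and 2396. The erythroid covariate left 652 higher and 671 lower genes in WT-derived and 95 and 94 in Notch3 KO-derived T-ALL. It reversed Mxd3 to 0.14, Mnt to 0.75, Rbbp4 to -0.22, Ncor1 to 0.0029 and Ndrg2 to 0.0739 in WT-derived T-ALL, and Mxd1 to -0.85, Mnt to 1.31, Rbbp4 to -0.37, Ncor1 to 0.24, Ppp2r5a to 0.52 and Gadd45a to -0.31 in Notch3 KO-derived T-ALL. The neutrophil covariate, chosen after seeing the data, reversed Mxd1 to -0.10 there. Without single libraries, Mxi1 in Notch3 KO-derived T-ALL ranged from -0.39 to 0.14.

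Between the T-ALL groups, leaving out single libraries gave -0.0874 to 0.49 for Myc, -0.73 to 0.38 for Mxd4 and -0.16 to 0.16 for Mnt. Mxd4 was 0.0322 with quantile normalization, and Mnt was -0.0135 with it, -0.0507 with equal sums and -0.0226 with the neutrophil covariate. Under quantile normalization r turned to 0.0369 for Max and 0.0364 for Mxi1 with proliferation markers. The relations of Mycn, which are not read, turned to -0.0673 with erythroid and -0.0552 with macrophage markers.

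Same-numbered samples are not stated to be related, and their deviations correlated at -0.23 to 0.15, so the numbers were not taken to pair them. In the replicate block fit, where only same-numbered samples carry the comparison, Mxd3 was 0.0898 and Mnt 0.0059 in WT-derived T-ALL, the calls of Mxi1, Mxd4 and Mga were lost there, those of Max and Mga in Notch3 KO-derived T-ALL, and over all genes 1679 were higher and 1247 lower in WT-derived and 2098 and 1545 in Notch3 KO-derived T-ALL. The T-ALL groups share 1 number, which leaves their own fit no residual degrees of freedom with the block. A replicate block in a fit of all 3 groups, added after seeing the data, ties them through thymus numbers. It gave -0.11 for Myc, -0.13 for Max, 0.19 for Mxd4 and -0.0876 for Mnt, did not call Gadd45a, and left 1 higher and 0 lower of all genes by limma, with 1095 at an unadjusted p under 0.05 (69 and 3 as reported).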
